A study of Mus musculus with 9 samples.

Results

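AMP-activated protein kinase (AMPK) is the energy-sensing kinase of the cell, and its 7 subunit genes together with 2 genes of upstream kinases, 9 genes in all of 38293 listed in the count table, were examined in the neonatal mouse heart. The members were taken by symbol from this fixed list: Prkaa1 and Prkaa2 (catalytic alpha), Prkab1 and Prkab2 (scaffold beta), Prkag1, Prkag2 and Prkag3 (nucleotide-binding gamma), Stk11, which encodes LKB1, and Camkk2. Poly(A)-selected RNA was sequenced from ventricles at postnatal day 7 (P7) in 9 libraries. Of these, 5 came from Arid1a f/f control littermates, in which Arid1a is flanked by loxP sites and no Cre is named, and 4 from aMHC-Cre;Arid1a f/f cKO animals, in which Cre under the alpha myosin heavy chain promoter deletes Arid1a in cardiomyocytes. Both groups therefore carry the floxed alleles, so an effect of the Cre transgene and an effect of the deletion cannot be told apart. The product of Arid1a binds DNA as part of SWI/SNF, a remodeler of nucleosomes, and the study compared the groups to ask how its loss alters gene expression as the heart matures.

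AMPK is a heterotrimer of 1 alpha, 1 beta and 1 gamma subunit. The gamma subunit binds AMP, ADP or ATP, the beta subunit holds the complex together and binds glycogen, and the alpha subunit carries the kinase domain, which LKB1 or CAMKK2 switches on by phosphorylating its activation loop. In heart muscle the complex raises glucose uptake, glycolysis and fatty acid oxidation when ATP runs low, and mutations of the gamma2 gene cause a cardiomyopathy with glycogen storage and ventricular pre-excitation. Because each class is encoded by several genes, the mix of isoforms can change without a change of the total.

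Total counts per library lay between 31011055 and 40073801, and the members were covered by 159 counts (Prkag3) to 7847 counts (Prkaa2) in a library. Arid1a itself was at 139.8 ± 8.84 CPM (counts per 1e6 counts of the library, TMM-scaled; SD, n = 5) in controls and at 106.4 ± 5.44 CPM (SD, n = 4) in cKO ventricles, and no cKO library reached the lowest control (log2 fold change -0.39, SE 0.06, adjusted p = 0.00132 in edgeR). A split of the libraries that the labels do not give was also present, unevenly spread over the groups, and was defined with earlier results of these data known: Rps3a3, a processed pseudogene, was at 0.345 to 0.521 CPM in control replicates 1 and 2 and cKO replicates 1 to 3 (Rps3a3-low), and at 99.7 to 112 CPM in control replicates 3 to 5 and cKO replicate 4 (Rps3a3-high). Rps3a1 went the other way, at 253.1 to 275.6 CPM in the Rps3a3-low and 70.79 to 75.66 CPM in the Rps3a3-high libraries. The labels do not say what separates the sets. Cardiomyocyte markers were abundant, summing to 48250.1 to 61919.6 CPM over 8 genes, while 6 markers of skeletal muscle summed to 1.20 to 2.15 CPM and 4 of adipocytes to at most 0.811 CPM. Of the 8 cardiomyocyte markers 2 (Myl2 and Pln) passed an adjusted p of 0.05 and were lower in cKO. Of those that did not pass, Actn2 had an estimate above 0 (log2 fold change 0.22) and the others below 0. The sum of the 8 was 54080.6 to 61919.6 CPM in controls and 48250.1 to 51541.1 CPM in cKO. Of 6 fibroblast markers 4 passed and were higher, while Pdgfra (log2 fold change 0.11) and Dcn (-0.04) did not pass. The sum of the 6 was 3871.1 to 4450.5 CPM in controls and 5185.5 to 5538.0 CPM in cKO. No gene passed among markers of endothelial (6), mural (6) and erythroid (5) cells, macrophages (6) and lymphocytes (5, of which 3 were tested). All 6 macrophage markers (median log2 fold change 0.47) and all 5 erythroid markers (median 0.32) nevertheless had estimates above 0, and their sums were 81.6 to 140.3 and 429.2 to 821.8 CPM in controls against 103.0 to 195.8 and 650.7 to 1016.8 CPM in cKO. The macrophage markers also followed the uneven library sets. Within each group Cd68, Adgre1, C1qa, C1qb and Lyz2 were higher in every Rps3a3-low library than in any Rps3a3-high library. For Csf1r this held in cKO only. Of 4 atrial markers, 1 was higher (Myl7) and 1 lower. The part of these shifts in the results below was not tested, and in bulk tissue fewer cells of a type and less RNA per cell cannot be told apart.

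Prkag2 and Prkab1 were the members that moved most, in opposite directions, so the annotated sequences before their start sites are shown. Prkag2 (GRCm38 chromosome 5, 24862744 to 25100642, minus strand, 10 annotated transcripts) has 3 RefSeq start sites spread over the gene, and the gene counts add the transcripts of all of them. Each window holds the 250 bases before the start, read 5′ to 3′ on the strand of the gene (RefSeq, GRCm38.p6). Capitals mark a match, on either strand, to the TEAD motif GGAATG or to the half-site AAGGTCA of estrogen-related receptors (ERR). These motifs and that of MEF2 were searched because the study deals with these families of factors in the heart.
Prkag2 start 1, chr5:25100643-25100892: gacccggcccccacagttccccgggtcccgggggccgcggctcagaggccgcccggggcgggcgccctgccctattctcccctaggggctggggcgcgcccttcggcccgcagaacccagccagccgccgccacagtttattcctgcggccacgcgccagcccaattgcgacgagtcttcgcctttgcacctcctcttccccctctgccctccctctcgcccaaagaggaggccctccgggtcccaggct
Prkag2 start 2, chr5:24995754-24996003: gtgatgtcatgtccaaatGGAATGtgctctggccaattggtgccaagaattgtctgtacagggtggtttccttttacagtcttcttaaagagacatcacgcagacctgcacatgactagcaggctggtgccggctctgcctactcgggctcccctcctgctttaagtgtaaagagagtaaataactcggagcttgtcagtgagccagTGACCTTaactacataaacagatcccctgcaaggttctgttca
Prkag2 start 3, chr5:24908510-24908759: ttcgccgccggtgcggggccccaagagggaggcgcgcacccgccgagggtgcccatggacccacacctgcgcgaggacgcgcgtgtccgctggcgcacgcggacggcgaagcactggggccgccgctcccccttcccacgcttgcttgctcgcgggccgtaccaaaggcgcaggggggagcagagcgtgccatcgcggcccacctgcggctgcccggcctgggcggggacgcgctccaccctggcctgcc
Prkab1, chr5:116024429-116024678: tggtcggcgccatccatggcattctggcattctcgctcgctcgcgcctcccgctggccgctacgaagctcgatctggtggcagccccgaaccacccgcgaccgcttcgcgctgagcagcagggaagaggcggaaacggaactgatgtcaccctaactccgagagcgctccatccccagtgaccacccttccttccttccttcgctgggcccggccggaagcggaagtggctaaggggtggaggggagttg
The Prkag2 windows at starts 1 and 3 are rich in G and C (73.2% and 77.2% of bases), whereas that at start 2 (48.4%) holds a TEAD match at -232 and an ERR half-site, on the opposite strand, at -43 from the start. Across all 32851 annotated promoter windows of the same length, 12.6% held the TEAD motif, 4.10% the ERR half-site and 2.90% the MEF2 motif. None of the 3 motifs was found in the windows of the other 8 members. The gene end of Prkab1 in GENCODE lies inside its RefSeq window, so part of that window is annotated there as transcribed. A match is a description of the sequence only, and the counts do not show which start site was used.

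In cKO ventricles 1 of the 9 members was higher and 3 were lower at an adjusted p under 0.05. Prkag2 rose, Prkab1, Prkag1 and Prkaa2 fell, and 5 members (Prkaa1, Prkab2, Prkag3, Stk11 and Camkk2) did not pass. All 9 were expressed highly enough to be tested, and 4 of 9 passed where 16.3% of all 15318 tested genes did (8.25% higher, 8.03% lower). With the study's further threshold of a 1.5-fold change, 1 member, Prkag2, was called, against 6.72% of all tested genes (4.01% higher, 2.72% lower). Of the 9, 3 had no overlap between the groups (Prkag2, Prkab1 and Prkag1), against 16.7% of tested genes (8.16% higher, 8.58% lower). The median log2 fold change of the members was -0.07, and that of all tested genes 0.01.

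**Figure D1:**
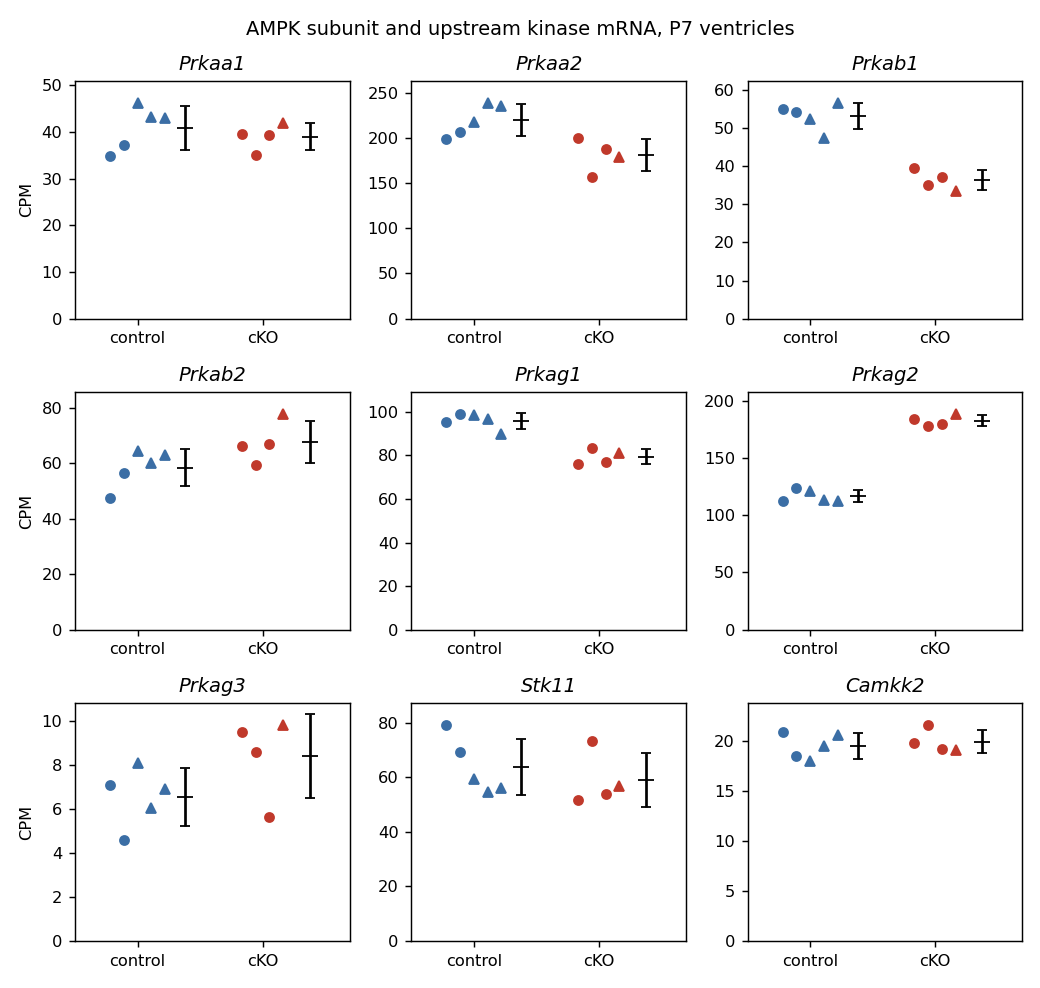
Level of each member in CPM (vertical axes from 0) in the 5 control (blue) and 4 cKO (red) libraries; circles are Rps3a3-low and triangles Rps3a3-high libraries, and the bar beside each group is the mean ± SD. The groups separate for Prkag2 (112.5 to 123.9 against 177.7 to 188.5 CPM), Prkab1 and Prkag1 and overlap for the other 6 genes.

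The gamma subunits bind adenine nucleotides and set the energy sensitivity of the kinase. In control replicates 1 to 5 Prkag2 measured 112.5, 123.9, 121.1, 113.4 and 112.8 CPM, and in cKO replicates 1 to 4 it measured 183.5, 177.7, 179.8 and 188.5 CPM. The lowest cKO library thus lay well above the highest control, and the spread within each group was small. The mean was 116.8 ± 5.36 CPM (SD, n = 5) in controls against 182.4 ± 4.73 CPM (SD, n = 4), a 1.56-fold rise (log2 fold change 0.64, SE 0.05, adjusted p = 8.73e-06 in edgeR). When any 1 of the 9 libraries was left out it was still called, with a log2 fold change of 0.62 to 0.67, and each library set alone gave a rise, of 0.61 (Rps3a3-low) and 0.70 (Rps3a3-high).

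Prkag1 (chromosome 15, 98812797 to 98831521), the gamma isoform found in most tissues, was at 95.4, 99.0, 98.6, 96.5 and 89.9 CPM in controls and at 76.1, 83.2, 77.0 and 81.1 CPM in cKO. The groups were apart, with all cKO values under the control range. The log2 change of Prkag1 was -0.27 (SE 0.06, adjusted p = 0.0063 in edgeR), a decrease that passed in all 9 fits without a library but not in either library set alone (-0.30, adjusted p = 0.0856 in the Rps3a3-low set; -0.23, adjusted p = 0.0643 in the Rps3a3-high set, both in edgeR). The Rps3a3-high value rests on 1 cKO library, assumed to vary like the controls, so it holds no replicate check of cKO. An antisense gene, B130046B21Rik, overlaps 43.7% of the Prkag1 exon bases. It was listed at 0 to 0.261 CPM. Antisense genes also overlap 2.20% (Prkag2os1) and 12.3% (Prkag2os2) of the Prkag2 exon bases, and both were at or below 0.174 CPM. The strand setting of the counting is not given in the sources used here. B130046B21Rik has 2359 exon bases, of which 950 overlap Prkag1, and had 0 to 9 counts per library against 2445 to 3561 for Prkag1. Prkag2os1 had 0 to 1 and Prkag2os2 1 to 6 counts, against 3488 to 7786 for Prkag2. How reads in the shared bases were assigned was not tested.

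Prkag3, the gamma isoform of glycolytic skeletal muscle, was the least abundant subunit, at 4.61 to 8.09 CPM in controls and 5.65 to 9.83 CPM in cKO. The groups overlapped, and the log2 fold change of 0.36 did not pass (95% interval -0.05 to 0.77, adjusted p = 0.228 in edgeR). Markers of skeletal muscle were close to 0, at 1.2 to 2.0 CPM in controls and 2.06 to 2.15 CPM in cKO for the sum of the list; their part in the Prkag3 value was not tested.

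**Figure D2:**
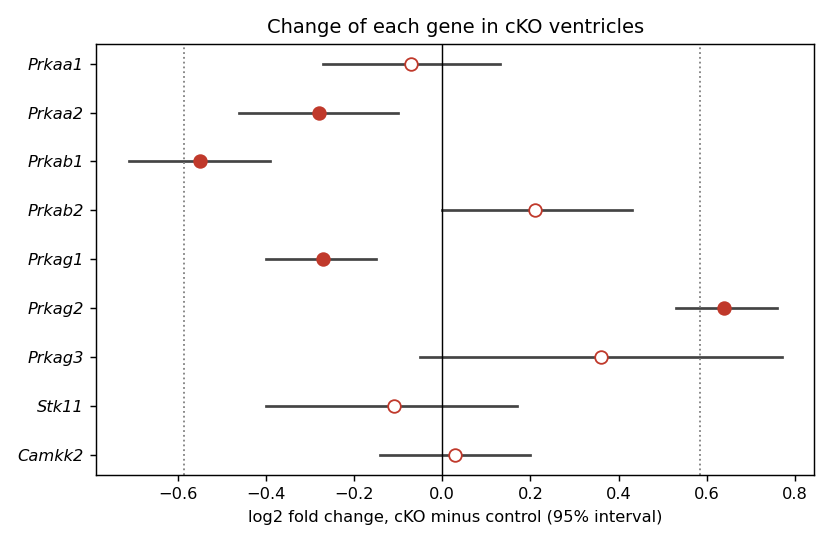
Log2 fold change of each member, cKO minus control, with its 95% interval from the edgeR fit over all genes; filled points passed an adjusted p of 0.05, open points did not, and dotted lines mark a 1.5-fold change. Prkag2 lies to the right at 0.64, Prkab1 (-0.55), Prkaa2 (-0.28) and Prkag1 (-0.27) to the left.

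The beta subunits link alpha to gamma. Prkab1 (chromosome 5, 116013586 to 116024508) measured 54.9, 54.2, 52.5, 47.5 and 56.7 CPM in controls, against 39.5, 35.2, 37.3 and 33.4 CPM in the cKO libraries. The groups did not overlap. The means were 53.2 ± 3.52 CPM (SD, n = 5) and 36.3 ± 2.64 CPM (SD, n = 4), which is -0.55 on the log2 scale (SE 0.07, adjusted p = 0.00041 in edgeR). This falls just short of a 1.5-fold change. The decrease passed in all 9 fits without a library, with -0.59 to -0.51, and was past 1.5-fold in 2 of them. Within the library sets it was -0.55 (Rps3a3-low) and -0.65 (Rps3a3-high).

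Prkab2 (chromosome 3, 97658193 to 97673812), the beta isoform of striated muscle, was at 47.7, 56.6, 64.5, 60.3 and 62.9 CPM in controls and at 66.4, 59.4, 67.1 and 77.9 CPM in cKO. The groups overlapped, and within each group the Rps3a3-low libraries were the lower ones. Its log2 fold change was 0.21 and did not pass (SE 0.10, 95% interval 0.00 to 0.43, adjusted p = 0.175 in edgeR). With the library set as a term in the fit the value was 0.31 (SE 0.07) and passed (adjusted p = 0.00932 in edgeR). The Rps3a3-low set alone gave 0.30, and the Rps3a3-high set, which holds 1 cKO library, gave 0.32.

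The alpha subunits carry the kinase activity. Prkaa2 (chromosome 4, 105029874 to 105109890), which encodes the alpha isoform that prevails in heart and skeletal muscle, was at 199.3, 206.3, 217.4, 239.1 and 235.7 CPM in controls and at 199.9, 157.3, 188.1 and 178.7 CPM in cKO. Of the cKO libraries 3 were below all controls, and cKO replicate 1 lay within the control range. The log2 fold change was -0.28 (SE 0.08, 95% interval -0.46 to -0.10, adjusted p = 0.0359 in edgeR). It no longer passed without control replicate 3, 4 or 5 or without cKO replicate 2, 3 or 4, with the least change, -0.22 (adjusted p = 0.0897 in edgeR), when cKO replicate 2 was left out. Nor did it pass in a fit that included the library set (-0.24, adjusted p = 0.0584 in edgeR). Within the sets the values were -0.16 (Rps3a3-low) and -0.37 (Rps3a3-high).

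Prkaa1 (chromosome 15, 5143861 to 5181899), the other alpha gene, was at 34.8 to 46.3 CPM in controls and 35.0 to 42.0 CPM in cKO. The groups overlapped in full, and the log2 fold change was -0.07 (95% interval -0.27 to 0.13, adjusted p = 0.659 in edgeR).

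Both upstream kinase genes missed the threshold. Stk11 (chromosome 10, 80115803 to 80130682), whose product LKB1 is the main AMPK kinase in heart, was at 79.2, 69.4, 59.3, 54.7 and 56.2 CPM in controls and at 51.6, 73.4, 53.8 and 56.7 CPM in cKO. Control replicates 1 and 2 and cKO replicate 2 were the high libraries, and the spread within groups was larger than the difference between them. The log2 fold change was -0.11 (95% interval -0.40 to 0.17, adjusted p = 0.602 in edgeR), and the Rps3a3-low set alone gave -0.32 against 0.00 in the other set. Camkk2 (chromosome 5, 122731170 to 122779409), the calcium-dependent kinase of AMPK, was at 18.0 to 20.9 CPM in controls and 19.1 to 21.6 CPM in cKO. Its interval was narrow (log2 fold change 0.03, 95% interval -0.14 to 0.20, adjusted p = 0.834 in edgeR).

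The balance of isoforms within a class was compared directly through the ratio of counts of its 2 main genes in each library, which needs no scaling. The 3 ratios were tested by a two-sided exact permutation test over all assignments of the group labels, for which the smallest p is 0.00794. The log2 ratio of Prkag2 to Prkag1 was 0.24, 0.32, 0.30, 0.23 and 0.33 in controls and 1.27, 1.1, 1.22 and 1.22 in cKO. The groups did not overlap. Prkag1 and Prkag2 differ in merged exon length (2175 and 6480 bases), so the ratio of counts does not compare their levels. Only its difference between the groups is read here. The difference was 0.92 (1.89-fold, exact permutation p = 0.00794, adjusted over the 3 ratios 0.0119).

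The log2 ratio of Prkab2 to Prkab1 was -0.20, 0.06, 0.30, 0.34 and 0.15 in controls and 0.75, 0.75, 0.85 and 1.22 in cKO. Again the groups did not overlap. The difference was 0.76 (1.7-fold, exact permutation p = 0.00794, adjusted 0.0119), so the beta genes did not move alike although Prkab2 alone did not pass.

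The log2 ratio of Prkaa2 to Prkaa1 was 2.23 to 2.52 in controls and 2.09 to 2.33 in cKO. The groups overlapped through control replicate 3. The difference of -0.22 (0.861-fold, exact permutation p = 0.0317, adjusted 0.0317) was much smaller than for beta or gamma, and it did not pass in 6 of the 9 tests without a library, among them -0.17 without cKO replicate 4 (exact permutation p = 0.107). When labels were permuted only within the library sets, which allows 40 assignments, p was 0.025 for each ratio, the smallest value possible. Taken set by set, first Rps3a3-low and then Rps3a3-high, the gamma ratio differed by 0.92 and 0.93, the beta ratio by 0.86 and 0.96, and the alpha ratio by -0.24 and -0.29.

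**Figure D3:**
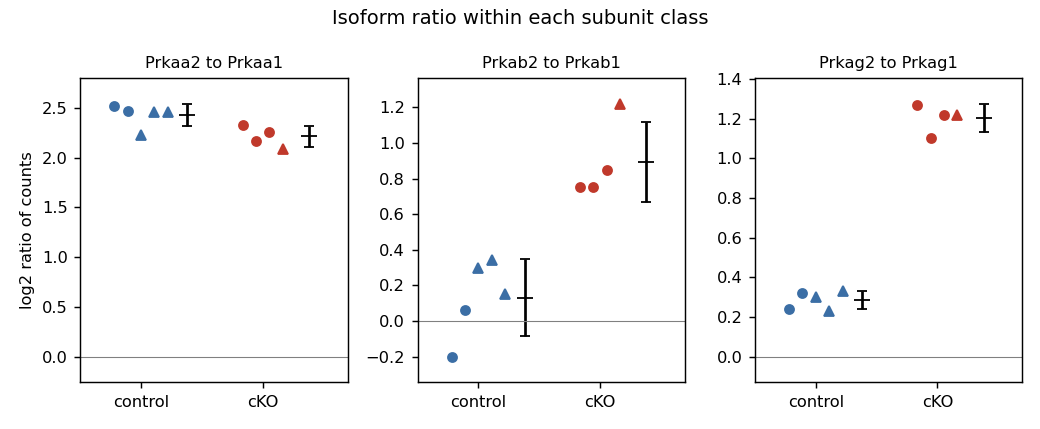
Log2 ratio of counts of the 2 main genes of the alpha, beta and gamma class in each library (blue control, red cKO; circles Rps3a3-low, triangles Rps3a3-high; bars mean ± SD; each panel has its own axis). The beta and gamma ratios separate the groups, by 0.76 and 0.92, and the alpha ratio differs by -0.22 with overlap.

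To set levels of different genes beside each other, CPM was divided by the length of the merged exons in kb. On this length the order in controls was Prkag1 (44.1 ± 1.7 CPM per kb, SD, n = 5), Prkaa2 (27.6 ± 2.20), Prkag2 (18.0 ± 0.827), Prkab1 (17.3), Stk11 (13.9 ± 2.26), Prkab2 (11.5 ± 1.31), Prkaa1 (8.79 ± 1.02), Camkk2 (1.79 ± 0.117) and Prkag3 (1.78 ± 0.355). The ranges of Prkag2 and Prkab1, of Prkab1 and Stk11, of Stk11 and Prkab2, of Prkab2 and Prkaa1, and of Camkk2 and Prkag3 overlapped. Within libraries, Prkab1 was above Stk11 and Prkab2 above Prkaa1 in all 5 controls, so for these pairs the overlap of ranges does not make the levels alike. In cKO ventricles, on the same length, Prkag1 (36.5 ± 1.55 CPM per kb, SD, n = 4) stayed the highest, Prkag2 (28.1 ± 0.731) came before Prkaa2 (22.7 ± 2.26) with no overlap, and Prkab2 (13.3 ± 1.5), Stk11 (12.9 ± 2.16) and Prkab1 (11.9 ± 0.860) overlapped. The order depends on the length: with the longest annotated transcript, Prkag2 (35.1 CPM per kb) came before Prkaa2 (27.6) and Prkab1 (25.5) in controls, behind Prkag1 (58.0), and in cKO Prkag2 (54.8) came before Prkag1 (48.0).

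Prkag2 accounted for 27.5 to 29.0% of the gamma mRNA per kb in controls and for 40.3 to 43.0% in cKO, while Prkag1 went from 68.2 to 69.9% down to 53.1 to 56.2%. The gamma total was 63.9 ± 2.29 CPM per kb (SD, n = 5) in controls and 66.9 ± 1.98 (SD, n = 4) in cKO, with overlapping ranges. Prkab2 made up 34.3 to 43.3% of beta mRNA in controls and 50.3 to 58.4% in cKO, and the beta total was 27.3 to 30.8 against 23.1 to 26.2 CPM per kb. Prkaa2 made up 73.3 to 77.0% of alpha mRNA in controls and 71.3 to 74.7% in cKO, with totals of 32.5 to 39.3 and 27.2 to 33.6 CPM per kb. The beta and gamma shares and totals depend on the length used, whereas those of alpha were the same on both lengths. With the longest annotated transcript in place of merged exons, Prkag2 made up 36.7% in controls and 51.8% in cKO, and Prkab2 31.4% and 43.7%, so that Prkab1 stayed the larger beta share in cKO and Prkag2 became the larger gamma share. On that length the gamma totals no longer overlapped, at 90.7 to 98.9 CPM per kb in controls and 102.6 to 109.2 in cKO, and the beta totals stayed apart, at 34.8 to 39.7 and 28.7 to 32.2 CPM per kb.

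**Figure D4:**
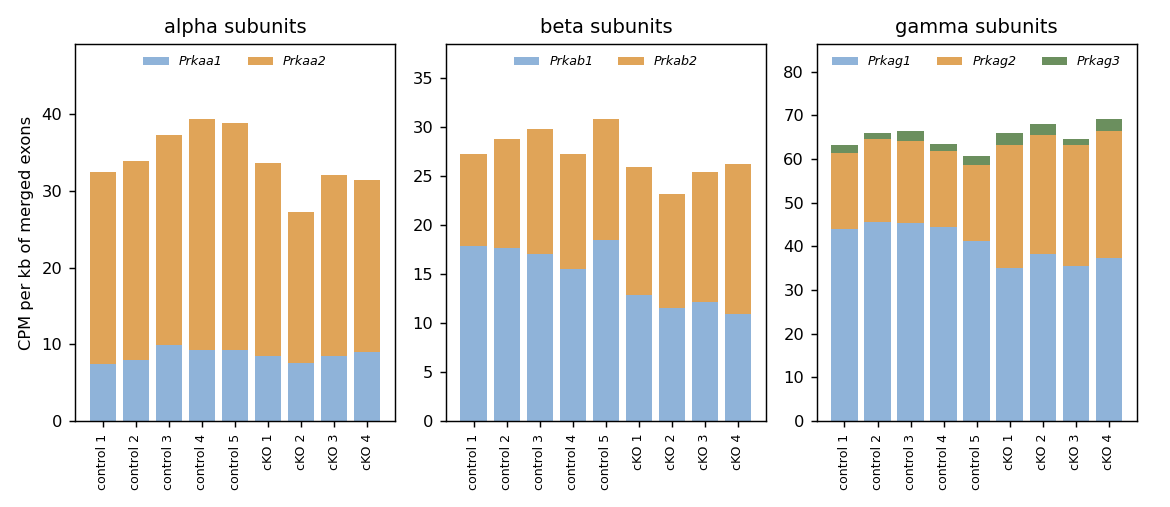
Level per kb of merged exons (CPM per kb, stacked from 0) of the alpha, beta and gamma genes in each library. On this length the gamma bars range from 60.6 to 69.0 CPM per kb, with overlap between the groups and a larger Prkag2 part in the 4 cKO libraries.

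Reads of 75 bases separate the isoforms: 0 of the 75-base windows of any member transcript were found in a transcript of another member, and of all member windows only 17 of Prkag3 (0.45%) occur in transcripts of any other gene.

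Genes that act around AMPK were described from 5 lists. Of 52 genes 50 were tested (Ampd1 and Brsk2 were too low), and 13 passed an adjusted p of 0.05, 3 higher and 10 lower in cKO. That is 26.0% against the 16.3% of all tested genes (8.25% higher, 8.03% lower). The median log2 fold change of the 50 was -0.06. Among 7 genes of adenine nucleotide handling, 2 of the 6 tested passed, both lower, with a median of -0.31. Ampd3, an AMP deaminase that removes the activating nucleotide AMP, fell from 60.5 ± 5.24 (SD, n = 5) to 33.0 ± 3.28 CPM (SD, n = 4), or by 0.88 in log2 terms (-0.88, SE 0.09, adjusted p = 4.32e-05 in edgeR). Ak1, the cytosolic adenylate kinase that forms AMP from ADP, fell from 418.0 ± 34.3 to 299.6 ± 25.0 CPM (log2 change -0.48, SE 0.08, adjusted p = 0.00131 in edgeR). The groups did not overlap for either gene, and both passed in all 9 fits without a library.

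Of 19 AMPK substrates 6 passed (31.6%, against 16.3% of all tested genes), 1 higher and 5 lower, with a median of -0.14. Without each library in turn 3 to 5 passed. Pfkfb2, the heart isoform of the enzyme that makes the glycolytic activator fructose 2,6-bisphosphate, fell from 94.9 ± 5.26 to 56.7 ± 5.29 CPM (log2 fold change -0.74, SE 0.08, adjusted p = 4.82e-05 in edgeR) with no overlap. Tbc1d1, a Rab GTPase-activating protein that holds back glucose transporter vesicles, fell by 0.39 (SE 0.08, adjusted p = 0.00767 in edgeR), with -0.52 in the Rps3a3-low but -0.14 in the Rps3a3-high libraries. Acaca, the cytosolic acetyl-CoA carboxylase of fatty acid synthesis, rose by 0.43 (SE 0.12, adjusted p = 0.0331 in edgeR), with overlap between the groups. Eef2k, which slows protein synthesis, fell by 0.29 (SE 0.08, adjusted p = 0.0219 in edgeR). Acaca no longer passed in 6 of the 9 fits without a library, with values of 0.37 to 0.50, and Eef2k in 3 of 9, with -0.32 to -0.24.

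Among 8 regulators Sesn1, a stress-induced sestrin that promotes AMPK activity, rose by 0.39 (SE 0.06, adjusted p = 0.00106 in edgeR), from 85.0 ± 4.22 to 111.8 ± 6.54 CPM. Flcn, the folliculin gene, fell by 0.48 (SE 0.12, adjusted p = 0.017 in edgeR), and without cKO replicate 4 its adjusted p was 0.0507. The other 6 did not pass, and the median of the list was 0.10. The share that passed was 25.0%, against 16.3% of all tested genes. Of 6 LKB1 partners and other activating kinases, 1 passed (16.7%), with a median of -0.02 over the list. Cab39, which encodes the MO25 scaffold of the LKB1 complex, fell by 0.28 (SE 0.07, adjusted p = 0.0178 in edgeR). Cab39 did not pass without control replicate 3 or without cKO replicate 2 or 3, with values of -0.33 to -0.25 over the 9 fits. Of 12 AMPK-related kinases, which LKB1 also activates, 11 were tested and 2 passed (18.2%), with a median of -0.07. Nuak1 rose from 46.7 ± 1.78 to 66.7 ± 7.50 CPM (log2 fold change 0.52, SE 0.08, adjusted p = 0.000972 in edgeR) with no overlap. Mark3 was lower by 0.19 (adjusted p = 0.0409 in edgeR) and passed in 0 of the 9 fits without a library, and in all 9 of them the value lay between -0.21 and -0.17.

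**Figure D5:**
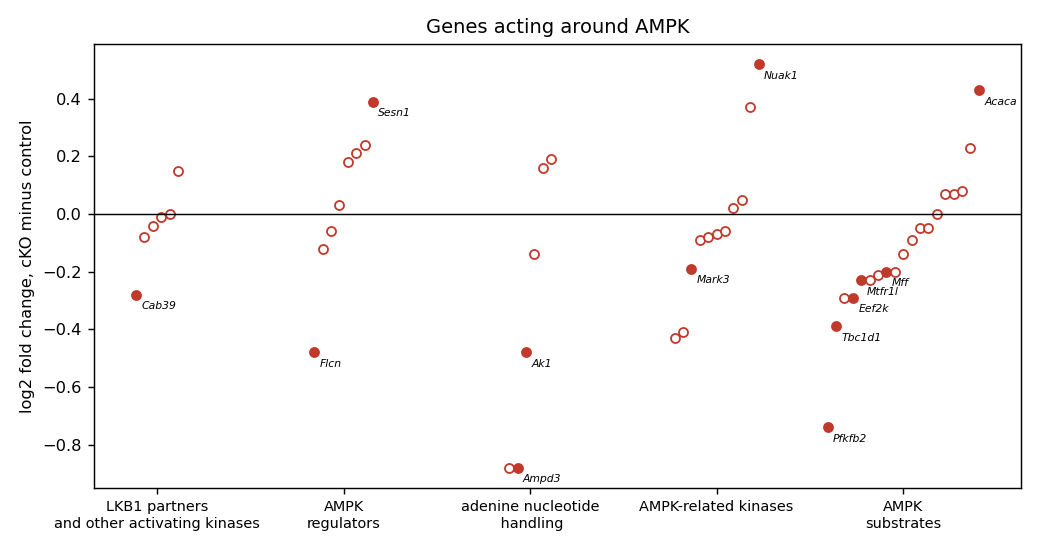
Log2 fold change, cKO minus control, of the 50 tested genes of 5 lists around AMPK; filled points passed an adjusted p of 0.05 and are named, open points did not. Ampd3 (-0.88) and Pfkfb2 (-0.74) lie lowest among the genes that passed, Nuak1 (0.52) highest.

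The genes whose level followed a member most closely over the 9 libraries were found by Pearson's r of log2 CPM among 11064 genes with a mean of at least 5 CPM, as a description in which the points share the genotype difference. For Prkag2 these included Bex4 (r = 0.991) and Shisa3 (0.991), which were higher in cKO by 2.15 and 3.50 on the log2 scale. For Prkab1 they were Rcsd1 (0.984), Nrbp2 (0.980) and Gata6 (0.979), and for Prkag1 they were Rbpms2 (0.969), Phc1 (0.968) and Cpped1 (0.968). For Prkaa2 they were B3galnt2 (0.994), Grpel2 (0.990) and Efr3a (0.988). With the group means removed, r was 0.978 to 0.986 for the Prkaa2 neighbours, 0.764 to 0.831 for those of Prkab1, 0.71 to 0.732 for those of Prkag1, and 0.512 and 0.655 for the Prkag2 neighbours named. The neighbours were chosen on the same libraries and the members differ in how much of their variation lies between the groups, so these values do not rank the members.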

How the data were processed

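RNA from P7 ventricles of 5 control and 4 cKO mice was measured as read counts per Ensembl gene. Per the study's methods the authors made TruSeq stranded mRNA libraries, sequenced single-end 75-base reads and mapped them to mm10. The submitters' processing notes name STAR 2.4.2a and HTSeq 0.6.1, and strand setting and annotation are not given in the sources used here. The authors deposited raw counts, with no normalization. The labels and the study's figure legend for the RNA sequencing give 5 controls. Its methods give another number, and all 5 were used.

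Symbols, coordinates and lengths came from GENCODE M21 (GRCm38), which matched 36345 of 38293 identifiers. Genes kept by filterByExpr (minimum count 10; 15318 genes) were scaled by TMM and tested in R 4.3.3 with edgeR 4.0.16 (estimateDisp, robust quasi-likelihood F test, genotype alone, two-sided). P-values were adjusted by Benjamini-Hochberg over all tested genes, where a gene passed at 0.05 and was called if it also changed 1.5-fold. SEs and 95% intervals came from the F statistic. The fit was checked on simulated counts. Named genes are all members, Arid1a, Rps3a3, Rps3a1, up to 4 genes per list past 0.05 by size of change and the 3 genes most correlated with each member that passed. Marker genes, antisense genes that overlap a member and listed genes that were not tested are named outside this rule, after their values were seen. 1 gene that this rule names is not reported here. The members and lists were chosen with earlier results of these data known.

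Deviations of same-numbered libraries correlated at r of 0.02, 0.04, 0.01 and 0.23 for replicates 1 to 4. Only replicate 4 was over 0.1, so the numbers were not taken as pairs. The 2 libraries of a number shared a library set for replicates 1, 2 and 4. Replicates are separate animals per the methods. Libraries of a group differed by more than counting noise (mean chi-square per gene at least 9.52). Alternatives were DESeq2 1.42.0, other scalings and filters, the replicate number, library set or Xist level as a term, each library set alone, leaving out each library, other ways of forming the ratios and another gene length.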

Additional observations from a re-analysis of the deposited data

Results flagged for a closer look

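Of 24 checks of a library far from the others of its group, on the 9 members and 3 ratios, 1 was met, where chance gives about 1 in 20. The log2 ratio of Prkaa2 to Prkaa1 in control replicate 3 was 2.23, with a gap to the next control that took 0.795 of the range of the 5 controls (critical value 0.71). Without this library the difference between the groups was -0.27 in place of -0.22. In an interaction fit no member passed for a difference between the library sets (lowest adjusted p = 0.947 in edgeR), which rests on 1 cKO library in the Rps3a3-high set.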

How the results depend on the processing

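Of the members, the 4 that passed and the 3 ratios kept their direction under all alternatives run, while Prkaa1 (0.08 in the Rps3a3-low libraries, 0.02 with the library set as a term) and Camkk2 (-0.02 in the Rps3a3-high libraries, -0.01 without cKO replicate 2), which did not pass, changed sign. Prkag2 and Prkab1 passed 0.05 under all alternatives run. Over all genes, the Rps3a3-low libraries alone gave 849 genes past 0.05 (620 called) in place of 2493 (1030), whereas the Rps3a3-high libraries alone, with 1 cKO library, gave 3107 (1361) and the library set as a term 3049 (1166). Prkaa2 no longer passed in the Rps3a3-low libraries (-0.16), with Xist level (-0.28) or the library set (-0.24) as a term, and ran from -0.33 to -0.22 without each library in turn. Prkag1 did not pass in the Rps3a3-low (-0.30) or Rps3a3-high (-0.23) libraries alone, which hold fewer samples, 1 cKO library in the latter. Prkab2 passed once the set entered the fit (0.31); its value in the Rps3a3-high libraries (0.32) had an adjusted p under 0.05, but it compares 3 controls with 1 cKO library, assumed to vary like the controls, and says nothing of the spread among cKO hearts. The Prkaa2 to Prkaa1 difference ran from -0.27 to -0.17 without each library. With the replicate number as a block, Prkaa2 did not pass (-0.25, adjusted p = 0.0936 in edgeR), the count past 0.05 was 1730, and the ratio differences over 4 same-numbered pairs were -0.21 (alpha), 0.77 (beta) and 0.93 (gamma), where sign flips cannot go below an exact p of 0.125. With the longest transcript as length, Prkab2 took 31.4% of its class in controls and 43.7% in cKO, and Prkag2 36.7% and 51.8%; the class totals, an alternative chosen after seeing the data, became 37.1 and 30.9 CPM per kb for beta and 95.4 and 105.7 for gamma. Without each library in turn, the genes past 0.05 numbered 0 to 1 among LKB1 partners, 1 to 2 among regulators, 2 to 3 in nucleotide handling, 1 to 2 among AMPK-related kinases and 3 to 5 among substrates; upper-quartile scaling left 1 of the AMPK-related kinases. The cause of these shifts was not tested. No scaling moved the median over all genes beyond 0.02.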
